A study of Sus scrofa with 9 samples.

Results

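The 32 genes described here make, import, move, store and export cholesterol. They were chosen by their roles in the pathway, with earlier results of these data known. They comprised 18 synthesis enzymes, 4 genes that control the transcription factor SREBP2, 2 genes of uptake, 4 of lysosomal export and intracellular handling, and 4 of efflux and its control by the liver X receptors (LXR). Gene symbols were matched to the pig Ensembl identifiers of the files, and 30 of the 32 genes were found. PMVK, the phosphomevalonate kinase, and LSS, the lanosterol synthase, were not matched and were not analysed here. Expression was measured as FPKM, the fragments of a gene scaled to its length and to the size of the library. Of the 30 genes, 29 were tested among the 11063 of 30477 identifiers that reached an FPKM of 1 in at least 3 libraries, and each of the 29 was above that level in all 9 libraries. ABCG1 was below it in all 9.

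The cells were porcine embryonic fibroblasts (PEF), connective tissue cells cultured from pig embryos and thawed before the experiment. Untreated cells collected at 0 h were the control, and the other 2 groups were cells given insulin and collected after 48 h or 72 h. Each group had 3 libraries, described by the submitters as biological replicates, and the series title asks which metabolic genes respond to insulin. The labels do not state the insulin dose, the medium or whether the replicates came from 1 cell line or several. All libraries of the later times came from treated cells, so insulin and hours in culture cannot be told apart in a comparison with 0 h.

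Animal cells build cholesterol from acetyl-CoA. The mevalonate enzymes turn it into isoprenoid units, which are joined to farnesyl diphosphate and then to squalene, and squalene is closed to lanosterol and trimmed to cholesterol. SREBP2, the product of SREBF2, switches these genes on. SCAP carries SREBP2 out of the endoplasmic reticulum when sterols are scarce, and the INSIG proteins hold the pair there when sterols are plentiful. Cholesterol from lipoproteins leaves the lysosome through NPC2 and NPC1, is stored as esters by SOAT1 and leaves the cell through ABCA1 and ABCG1, whose genes are activated by LXR. Insulin is best known in this pathway for raising lipid synthesis in liver and fat tissue, where the related factor SREBP1c takes part.

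Replicates of a group correlated at Pearson r of 0.9896 or more on the log2 scale, and libraries of different groups at 0.9869 or less. FPKM values summed to 487858 to 497665 at 0 h, 524992 to 563656 at 48 h and 505022 to 525471 at 72 h, and the read depth is unknown. In 48 h replicate 3, 16274 genes were above 0, against 15873 to 16051 in the other libraries. The 8 fibroblast markers found, collagens among them, were all tested and summed to 19642 to 20523 FPKM at 0 h, 17786 to 18662 at 48 h and 19752 to 20305 at 72 h. At 48 h the collagen genes COL1A1, COL1A2 and COL3A1 were called lower and DCN, LUM, PDGFRA and VIM higher. Of 8 macrophage markers, 5 stayed below an FPKM of 0.1, among them PTPRC and CD163, which were listed at 0 in all libraries. The sum of the 8 was 1.54 to 2.31 FPKM at 0 h, 4.08 to 5.15 at 48 h and 3.69 to 5.39 at 72 h, most of it CD14. The 4 epithelial markers summed to 5.56 to 6.77, 12.2 to 13.2 and 9.11 to 10.4 FPKM at the same times, most of it KRT8. The adipocyte markers ADIPOQ and LEP were listed at 0 throughout, and the sum of the 5 adipocyte markers was 0.16 to 0.47 FPKM. The macrophage and epithelial sums were higher at both later times, as most cholesterol genes were, and the fibroblast sum was lower at 48 h. The part of these markers in the results was not tested. In bulk RNA, fewer cells of a type and less RNA per cell cannot be told apart.

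At 48 h every tested synthesis enzyme was higher than at 0 h, and so were SREBF2 and INSIG1. The genes of uptake, transport and efflux changed by smaller amounts. Of these, SCARB1, NPC1, STARD4, NR1H2 and NR1H3 were called higher at 48 h. Only NPC2 was called lower, and under 12 of 20 alternative settings. At 72 h the enzymes were still all higher, and the LXR target ABCA1, the ubiquitin ligase gene MYLIP and the lysosomal gene NPC2 were higher as well. SOAT1, which stores cholesterol as esters, was lower at 72 h. A gene was called where the limma adjusted p (Benjamini-Hochberg over all genes tested) was below 0.05, and changes are differences in log2(FPKM + 1), on which the change of low genes is understated. At 48 h, 23 of the 29 genes were called higher and 1 lower, where 27.6% of all tested genes were called higher and 22.4% lower (49.9% in either direction). At 72 h, 26 were called higher and 1 lower, against 23.0% and 22.5% of all genes (45.5% in either direction). The median change of the 29 genes was 1.03 at 48 h and 0.97 at 72 h, and that of all tested genes was 0.02 and -0.01. With all libraries scaled to the same FPKM sum, the median of all genes at 48 h was -0.10, and 1960 genes were called higher and 3680 lower in place of 3048 and 2476. At 72 h, median scaling gave 3067 higher and 1982 lower in place of 2542 and 2487. The 48 h and 72 h comparisons share the 0 h libraries, so their values are given side by side only.

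**Figure D1:**
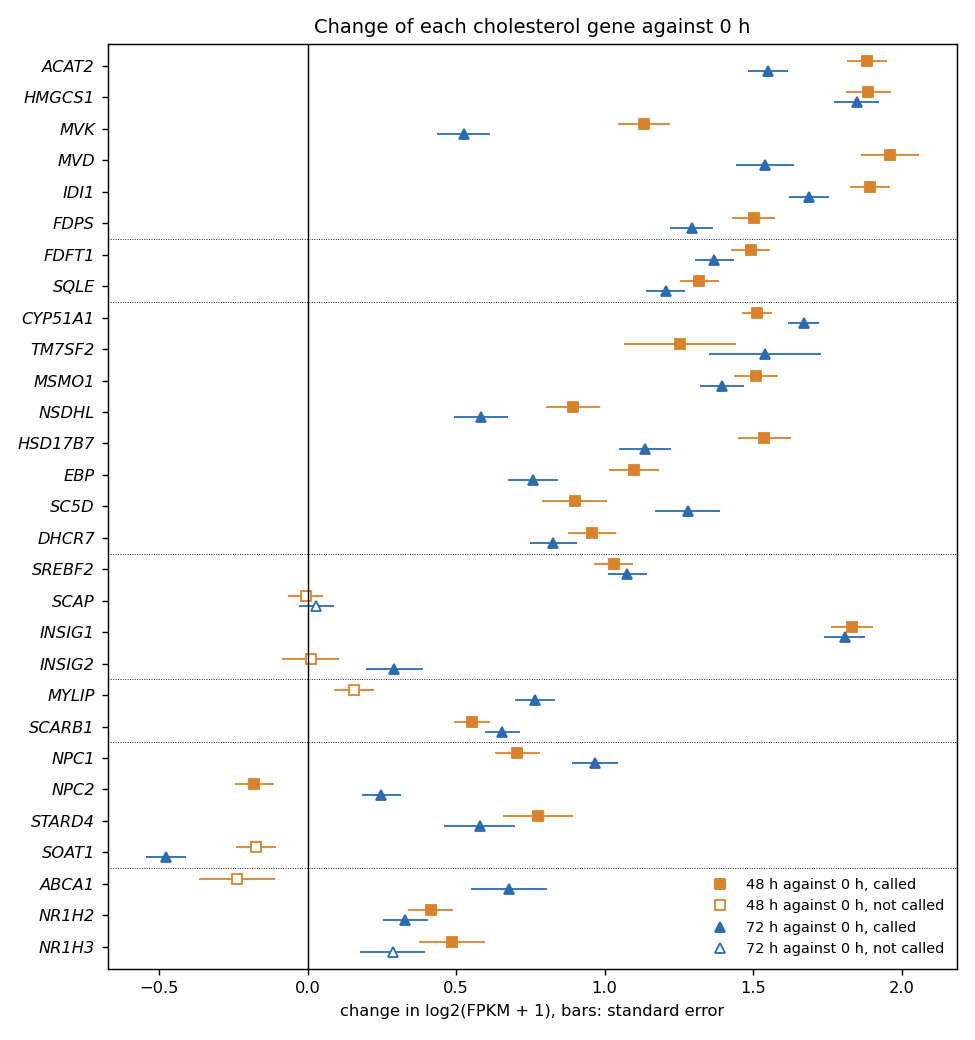
Change of each of the 29 tested cholesterol genes against 0 h, in log2(FPKM + 1), at 48 h (squares) and 72 h (triangles), with bars for the standard error of the fit. Dotted lines separate the roles named in the text; filled symbols were called at a limma adjusted p below 0.05. The synthesis enzymes lie between 0.89 and 1.96 at 48 h and between 0.53 and 1.85 at 72 h, and SCAP lies at 0 within its error.

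The change was also visible library by library. At 48 h, 24 genes had all 3 libraries above all 3 of 0 h (32.4% of all genes did), and 1 had all 3 below (27.6%). At 72 h the numbers were 27 above (28.1% of all genes) and 1 below (30.4%). A called rise of at least 1 on the log2 scale was seen for 15 of the 29 genes at 48 h, where 1.56% of all genes reached it, and for 14 at 72 h, where 2.14% did. A called fall of that size was seen for 0 of the 29 genes at either time, against 1.43% and 3.06% of all genes. Ranked by change among the 11063 genes at 48 h, MVD stood at place 7, IDI1 at 10, HMGCS1 at 11, ACAT2 at 12 and INSIG1 at 15. Of the 50 highest changes, 10 at 48 h and 4 at 72 h belonged to the 29 cholesterol genes, and of the 200 highest, 15 and 14.

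**Figure D2:**
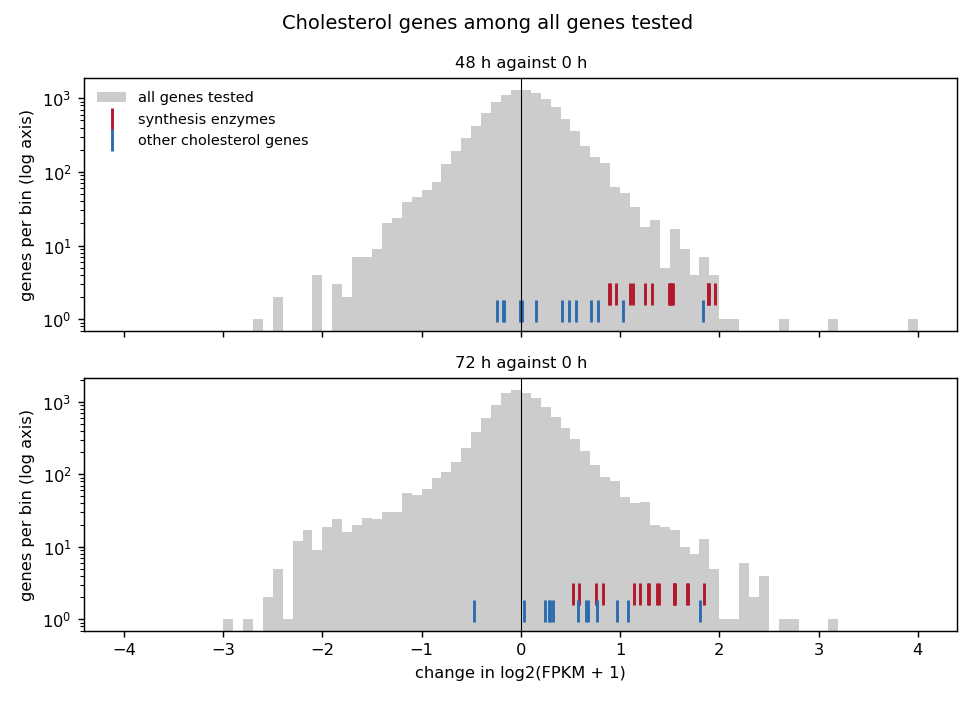
Number of tested genes in bins of the change in log2(FPKM + 1), on a log axis, for 48 h (top) and 72 h (bottom) against 0 h; red ticks mark the 16 tested synthesis enzymes and blue ticks the other 13 tested cholesterol genes. The enzymes sit in the right flank, with medians of 1.5 and 1.33, and most other cholesterol genes sit nearer to the centre.

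The mevalonate and isoprenoid enzymes had the highest median change of the roles at 48 h. All 6 tested enzymes were called higher at both times, with a median change of 1.89 at 48 h and 1.55 at 72 h. HMGCS1 (ENSSSCG00000016872, on chromosome 16 at 27936225 to 27957261 of Sscrofa11.1) condenses acetyl-CoA with acetoacetyl-CoA. It was at 23.7, 24.7 and 23.6 FPKM in the 3 libraries of 0 h, 82.5, 91.2 and 102 at 48 h and 90.3, 84.8 and 92.4 at 72 h. Every treated library was more than 3 times the highest control, and the 2 later times overlapped. The mean rose to 3.83 times that of 0 h by 48 h and 3.71 times by 72 h, a change of 1.89 ± 0.08 (SE) and 1.85 ± 0.08 (limma adjusted p = 8.77e-08 and 2.28e-08).

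MVD, on chromosome 6 at 1008100 to 1014303, makes isopentenyl diphosphate. It was at 16.7, 15.3 and 16.6 FPKM at 0 h, 72.5, 67.0 and 58.6 at 48 h and 53.8, 51.0 and 42.6 at 72 h. The 3 groups did not overlap: 48 h was highest, 72 h lay between and 0 h was lowest. The change against 0 h was 1.96 ± 0.10 at 48 h and 1.54 ± 0.10 at 72 h (limma adjusted p = 3.24e-07 and 4.72e-07). IDI1 isomerises that unit, and was at 35.1, 32.1 and 33.1, then 138, 126 and 118, then 112, 106 and 111 FPKM. It followed the same order without overlap, with changes of 1.89 ± 0.07 and 1.69 ± 0.07. ACAT2 here is the cytosolic thiolase that makes acetoacetyl-CoA, not the sterol esterifying enzyme that shares the name in some texts. It was at 32.2, 28.6 and 31.9 FPKM at 0 h, 121, 116 and 113 at 48 h and 96.3, 85.9 and 95.3 at 72 h, again with 72 h between the other times, and its changes were 1.88 ± 0.07 and 1.55 ± 0.07.

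MVK, the mevalonate kinase, had the smallest change of these enzymes at both times. Its libraries were at 8.40, 8.27 and 9.39 FPKM at 0 h, 23.1, 19.4 and 18.4 at 48 h and 12.3, 13.7 and 12.7 at 72 h. All treated libraries were above the controls, but the 72 h libraries lay nearer to 0 h than to 48 h. The change was 1.13 ± 0.09 at 48 h and 0.53 ± 0.09 at 72 h (limma adjusted p = 6.00e-06 and 0.000696), and the 72 h change was the smallest of all 16 enzymes. FDPS joins the isoprenoid units to farnesyl diphosphate, and had the highest FPKM of the enzymes in each group. It was at 104, 103 and 103 FPKM in the controls, 331, 289 and 268 at 48 h and 263, 246 and 256 at 72 h. The controls lay within 1 FPKM of each other, and the mean was 2.86 times theirs at 48 h and 2.47 times at 72 h (changes of 1.5 ± 0.07 and 1.29 ± 0.07).

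**Figure D3:**
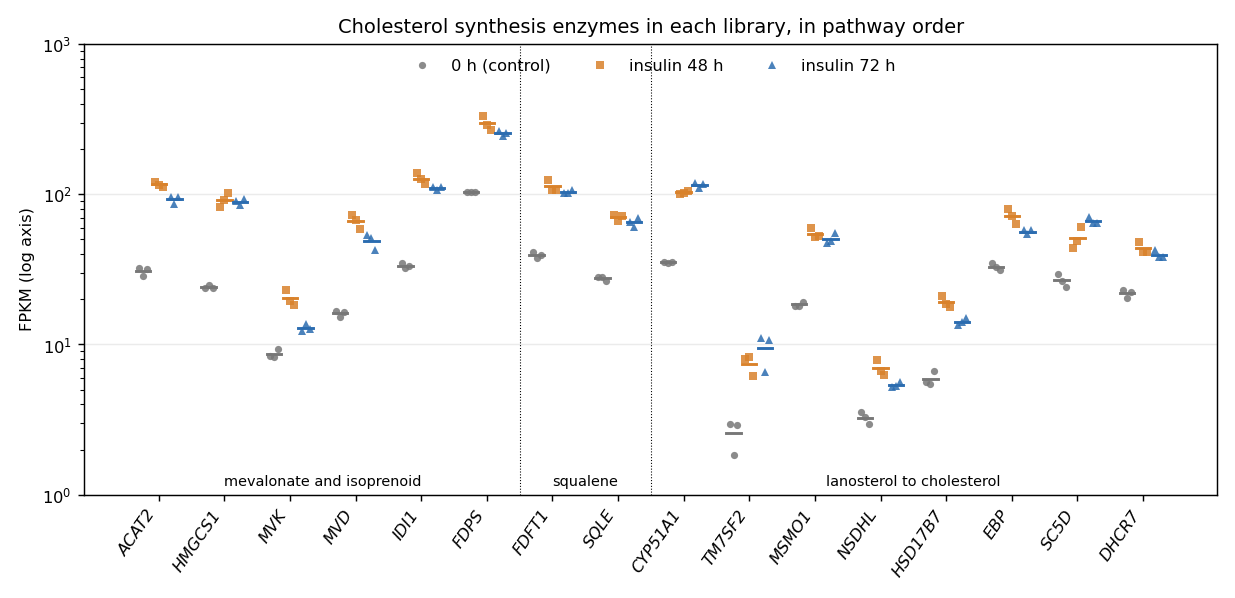
FPKM (log axis) of the 16 tested synthesis enzymes in each library, in pathway order, at 0 h (grey circles), 48 h (orange squares) and 72 h (blue triangles), with a line at each group mean (n = 3). No treated library overlaps a control library for any of the 16 enzymes, FDPS is the highest in each group, and TM7SF2 (at 0 h) or NSDHL (at 48 h and 72 h) the lowest.

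The enzymes of squalene were both called higher at both times. FDFT1, which joins farnesyl diphosphate to squalene, was at 41.0, 37.5 and 39.7 FPKM at 0 h, 124, 107 and 107 at 48 h and 102, 102 and 106 at 72 h. The 72 h libraries were all just below the lowest of 48 h, a difference that did not pass the test (limma adjusted p = 0.200). SQLE oxidises squalene before ring closure, and was at 28.1, 28.1 and 26.5 FPKM at 0 h, 73.1, 66.2 and 71.7 at 48 h and 65.5, 60.4 and 69.0 at 72 h. For both genes all treated libraries were far above the controls, with changes of 1.49 ± 0.07 and 1.37 ± 0.07 for FDFT1 and 1.32 ± 0.07 and 1.21 ± 0.07 for SQLE.

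All 8 enzymes between lanosterol and cholesterol were called higher at both times, by a median of 1.18 at 48 h and 1.21 at 72 h. CYP51A1, the lanosterol demethylase, was at 35.5, 35.0 and 35.6 FPKM at 0 h, 101, 102 and 106 at 48 h and 118, 109.8 and 116 at 72 h. Here 72 h was highest and the groups did not overlap, with changes of 1.51 ± 0.05 and 1.67 ± 0.05 against 0 h. MSMO1, which oxidises the methyl groups at C4, was at 18, 18.2 and 19.3 FPKM, then 59.4, 51.6 and 52.7, then 47.2, 49.1 and 54.8, and the later times overlapped (changes of 1.51 ± 0.07 and 1.40 ± 0.07). NSDHL and HSD17B7 complete the removal of those groups. NSDHL rose from 3.26 ± 0.281 (SD, n = 3) to 6.93 ± 0.853 and 5.38 ± 0.242 FPKM, and HSD17B7 from 5.94 ± 0.677 to 19.1 ± 1.64 and 14.2 ± 0.841. Both were highest at 48 h, with changes of 0.89 ± 0.09 and 0.58 ± 0.09 for NSDHL and 1.54 ± 0.09 and 1.14 ± 0.09 for HSD17B7.

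TM7SF2 and LBR encode the enzymes that can reduce C14 of the sterol ring, and they moved in opposite directions. TM7SF2 was at 2.94, 1.83 and 2.91 FPKM at 0 h, 8.01, 8.22 and 6.13 at 48 h and 11.08, 6.59 and 10.7 at 72 h. Its standard error was the largest of the 16 enzymes, and no treated library overlapped the controls (changes of 1.25 ± 0.19 and 1.54 ± 0.19, limma adjusted p = 0.000402 and 7.47e-05). LBR, which also anchors chromatin at the nuclear envelope and was not among the 32 genes, was at 12.6, 12.01 and 13.8 FPKM at 0 h, 8.0, 9.0 and 10.0 at 48 h and 6.72, 6.73 and 7.58 at 72 h. Each later group lay wholly below the earlier, and LBR fell by 0.47 at 48 h and by 0.78 at 72 h on the log2 scale (limma adjusted p = 0.00175 and 4.28e-05). LBR was higher than TM7SF2 in FPKM in every library of 0 h, and the TM7SF2 level was above that of LBR in 72 h replicates 1 and 3 and, at 8.01 against 8.0 FPKM, in 48 h replicate 1.

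The last 3 enzymes shift, make or reduce double bonds of the ring. EBP, the sterol isomerase, was at 34.9, 32.8 and 31.1 FPKM at 0 h, 80.2, 72.1 and 63.3 at 48 h and 57.4, 54.0 and 57.6 at 72 h, with the highest values at 48 h (changes of 1.10 ± 0.08 and 0.76 ± 0.08). SC5D, the C5 desaturase, was at 29.6, 26.5 and 24.2, then 43.9, 48.8 and 60.4, then 70.4, 64.1 and 64.2 FPKM, with the highest values at 72 h (changes of 0.90 ± 0.11 and 1.28 ± 0.11). DHCR7 reduces a double bond of the ring, and was at 22.9, 20.4 and 22.4, then 48.2, 41.4 and 41.1, then 42.6, 38.4 and 38.0 FPKM. Its later times overlapped, and both lay above 0 h (changes of 0.96 ± 0.08 and 0.83 ± 0.08).

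Taken as a sum, the 16 enzymes held 431 ± 10.5 FPKM in the controls (SD, n = 3), 1258 ± 66.7 after 48 h and 1133 ± 36.6 after 72 h. As a share of the FPKM sum of the library this was 0.0871%, 0.231% and 0.221%. The order of the enzymes by FPKM also shifted: from 0 h to 48 h HMGCS1 went from place 9 to 6 of 16 and MVD from 12 to 9, while EBP went from 5 to 7 and SC5D from 8 to 11. The change of every synthesis enzyme against 0 h was called under every alternative setting in which the gene could be fitted.

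Of the 4 genes that control SREBP2, SREBF2 and INSIG1 rose at both times, INSIG2 rose at 72 h, and SCAP was called at neither time. SREBF2, on chromosome 5 at 6719484 to 6784724, was at 26.8, 27.2 and 27.4 FPKM at 0 h, 55.9, 59.0 and 54.6 at 48 h and 61.8, 60.5 and 53.0 at 72 h. The 48 h and 72 h libraries overlapped each other and were all well above the controls. The mean was 2.08 and 2.15 times that of 0 h, a change of 1.03 ± 0.07 and 1.08 ± 0.07 (limma adjusted p = 2.10e-06 and 3.74e-07).

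INSIG1, on chromosome 18 at 2885494 to 2898758, is itself a known target of SREBP2. It was at 23.6, 20.4 and 19.8 FPKM at 0 h, 80.9, 78.2 and 75.7 at 48 h and 78.9, 77.9 and 73.9 at 72 h. The later times overlapped each other and were far above 0 h, with changes of 1.83 ± 0.07 and 1.81 ± 0.07. INSIG2, its relative, was at 4.65, 4.21 and 3.86 FPKM at 0 h, 3.90, 4.25 and 4.68 at 48 h and 5.48, 4.78 and 6.01 at 72 h. The 48 h libraries overlapped the controls (0.01 ± 0.10, limma adjusted p = 0.939), and the 72 h libraries lay above them (0.29 ± 0.10, limma adjusted p = 0.0293). The INSIG2 call at 72 h was lost without 0 h replicate 2 or 3 or 72 h replicate 1 or 3 (limma adjusted p = 0.0723, 0.112, 0.0752 and 0.102), without the filter on low values (0.0687) and with equal FPKM sums (0.0895). SCAP, the escort, was at 21.9, 21.7 and 20.3 FPKM at 0 h, 21.6, 21.3 and 20.6 at 48 h and 21.7, 22.5 and 20.9 at 72 h. All 3 groups overlapped, and the changes were -0.01 ± 0.06 and 0.03 ± 0.06 (limma adjusted p = 0.926 and 0.719). The sign of the SCAP change turned under other settings, and it was called under none of them.

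Both genes of uptake were higher at 72 h. SCARB1, the receptor that takes cholesteryl esters from high density lipoprotein, was at 18.9, 20.1 and 20.3 FPKM at 0 h, 28.3, 29.2 and 31.0 at 48 h and 30.6, 32.7 and 31.8 at 72 h. Controls were lowest and the later times overlapped slightly, with changes of 0.55 ± 0.06 and 0.66 ± 0.06 (limma adjusted p = 4.77e-05 and 8.12e-06). MYLIP, on chromosome 7 at 12117240 to 12137934, encodes a ubiquitin ligase that marks lipoprotein receptors for degradation and is a known LXR target. It was at 6.66, 5.96 and 5.77 FPKM at 0 h, 6.75, 6.94 and 7.11 at 48 h and 11.14, 11.02 and 11.2 at 72 h. The 48 h libraries lay just above the controls and did not pass the test (0.16 ± 0.07, limma adjusted p = 0.0779), and the 72 h libraries were within 0.2 FPKM of each other and far above both. By 72 h the MYLIP mean rose to 1.81 times that of 0 h, a change of 0.77 ± 0.07 (limma adjusted p = 6.23e-06). Without 0 h replicate 1 the 48 h change of MYLIP was 0.21 and was called (limma adjusted p = 0.0444). It was also called with median scaling and with library weights (0.0401 and 0.00669).

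The genes of lysosomal export and intracellular handling did not move together. NPC1, the membrane protein of the lysosome that passes cholesterol outward, lies on chromosome 6 at 108403126 to 108450486 and was at 8.57, 8.74 and 8.49 FPKM at 0 h, 14.8, 14.0 and 15.2 at 48 h and 19.4, 15.8 and 18.3 at 72 h. The 3 groups were apart and in the order of time, with changes of 0.71 ± 0.08 and 0.97 ± 0.08 against 0 h (limma adjusted p = 5.16e-05 and 2.94e-06). NPC2, the soluble protein that hands cholesterol to NPC1, had the highest FPKM of the 13 tested genes outside synthesis at each time: 185, 169 and 181 at 0 h, 171, 153 and 149 at 48 h and 216, 217 and 203 at 72 h. The 48 h libraries reached below the controls but overlapped them, and the 72 h libraries were above both groups. NPC2 changed by -0.18 ± 0.07 at 48 h and by 0.25 ± 0.07 at 72 h (limma adjusted p = 0.0417 and 0.0103).

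The 48 h call of NPC2, the only cholesterol gene called lower there, was lost without 0 h replicate 1 or 3, 48 h replicate 2 or 3 or 72 h replicate 1 (limma adjusted p = 0.141, 0.117, 0.126, 0.111 and 0.0570), without the filter, with median scaling and with the 2 groups alone (0.0675, 0.102 and 0.0558), and with equal FPKM sums it was -0.32. STARD4 shuttles sterol between membranes, and was at 2.71, 2.92 and 3.31 FPKM at 0 h, 5.18, 5.74 and 6.54 at 48 h and 5.24, 4.0 and 5.70 at 72 h. All treated libraries were above the controls and the later times overlapped, with changes of 0.77 ± 0.12 and 0.58 ± 0.12. SOAT1, on chromosome 9 at 121045211 to 121112393, makes cholesteryl esters in the endoplasmic reticulum. Its libraries were at 9.10, 9.22 and 10.2 FPKM at 0 h, 8.01, 8.37 and 8.53 at 48 h and 6.47, 6.37 and 6.79 at 72 h. Each later group was below the earlier with no overlap. The 48 h difference was -0.17 ± 0.07 and missed the threshold (limma adjusted p = 0.0525), while SOAT1 fell by 0.48 at 72 h (limma adjusted p = 0.000210). The 48 h difference passed under 3 of 20 alternative settings. These were equal FPKM sums (-0.31, limma adjusted p = 0.00844), library weights (0.00367) and a replicate block (0.0468).

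The efflux genes differed by time. ABCA1, the exporter that loads cholesterol onto lipoprotein particles, lies on chromosome 1 at 246144277 to 246278492 and was at 7.89, 8.37 and 8.58 FPKM at 0 h, 5.56, 7.02 and 8.26 at 48 h and 14.8, 11.7 and 15.4 at 72 h. At 48 h 2 libraries were below the controls and replicate 3 lay within their range (-0.24 ± 0.13, limma adjusted p = 0.146), and at 72 h all 3 were above every other library. The ABCA1 mean at 72 h was 1.68 times that of 0 h (0.68 ± 0.13, limma adjusted p = 0.00142). Without 48 h replicate 3, the 48 h change of ABCA1 was -0.35 and was called lower (limma adjusted p = 0.0339). With library weights it was -0.21 and was also called (0.00873). ABCG1, the second exporter, was listed at 0.15, 0.09 and 0.15 FPKM at 0 h, 0.20, 0.14 and 0.23 at 48 h and 0.49, 0.23 and 0.29 at 72 h. These low values kept it out of the test, and with no filter its change at 72 h was 0.24 (limma adjusted p = 0.0334).

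The LXR genes rose at 48 h. NR1H2, the widely expressed LXR, was at 38.0, 39.4 and 38.7 FPKM at 0 h, 55.3, 52.0 and 48.6 at 48 h and 51.4, 52.1 and 43.7 at 72 h. NR1H3, its relative, was at 10.1, 10.1 and 9.68, then 16.6, 14.4 and 12.4, then 10.6, 13.6 and 13.2 FPKM. For both genes all treated libraries were above the controls and the later times overlapped. NR1H2 changed by 0.41 ± 0.08 and 0.33 ± 0.08 (limma adjusted p = 0.00132 and 0.00472), and NR1H3 by 0.49 ± 0.11 and 0.29 ± 0.11 (limma adjusted p = 0.00443 and 0.0543). The NR1H3 difference at 72 h missed the threshold, and passed it under 8 of the 20 alternative settings, among them without 48 h replicate 1 or 3 or 72 h replicate 1 (limma adjusted p = 0.0303, 0.0300 and 0.0158).

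**Figure D4:**
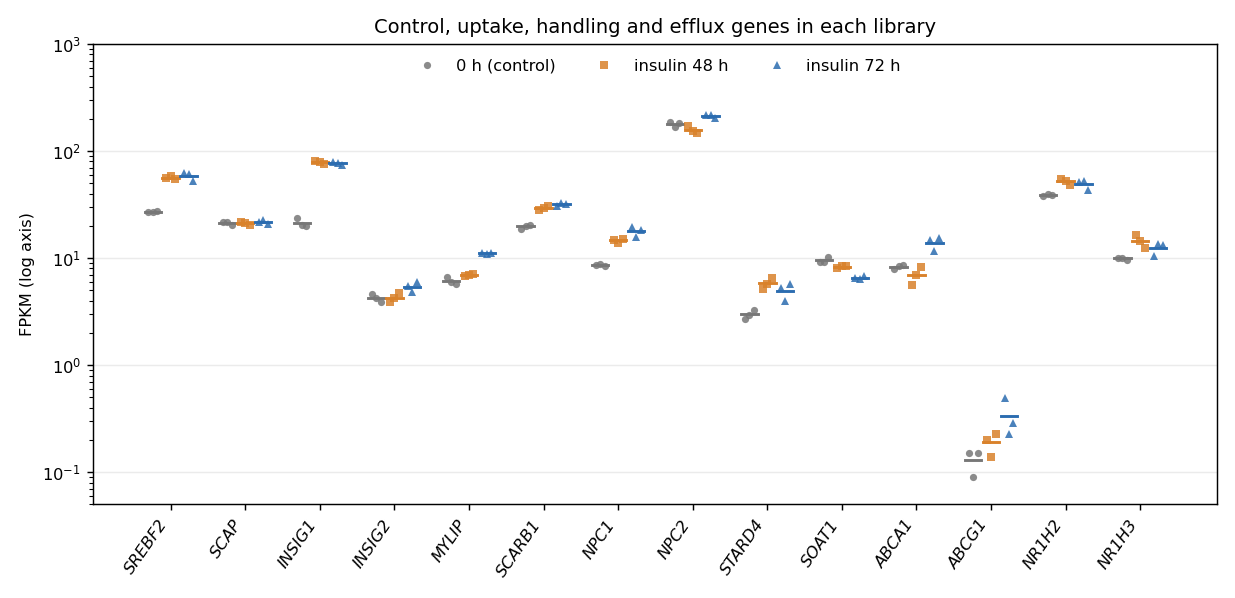
FPKM (log axis) of the genes of SREBP2 control, uptake, intracellular handling and efflux in each library at 0 h (grey circles), 48 h (orange squares) and 72 h (blue triangles), with a line at each group mean (n = 3). SREBF2 and INSIG1 are high at both later times, MYLIP and ABCA1 are highest in the 72 h libraries, SOAT1 falls at 72 h and ABCG1 is below 1 FPKM in all libraries.

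Some of these genes share their place in the genome with another. Of the 28 genes with coordinates in a RefSeq table of Sscrofa11.1, 6 overlapped another annotated gene and 4 of them a protein-coding one, so reads may be shared if the counting did not use strand, on which the labels are silent. ACAT2 overlaps TCP1, a chaperonin subunit gene, which was at 131 ± 2.01, 130 ± 7.24 and 112 ± 5.57 FPKM (SD, n = 3) at 0 h, 48 h and 72 h. The changes of TCP1 were -0.02 at 48 h and -0.23 at 72 h, where ACAT2 rose at both times. NR1H3 overlaps MADD and ACP2, whose means were 5.68, 4.94 and 4.72 FPKM and 6.06, 6.22 and 5.75 FPKM at the 3 times. NPC1 and PMVK overlap C6H18orf8 and KCNN3, which were not analysed here.

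Between 48 h and 72 h, 7 of the 16 synthesis enzymes fell and 2 rose, while ABCA1, MYLIP and NPC2 rose. Of the 29 genes, 6 were called higher at 72 h than at 48 h and 8 lower, where 9.17% of all tested genes were called higher and 16.3% lower (25.4% in either direction). With equal FPKM sums the split over all genes turned, to 1419 called higher and 1136 lower in place of 1014 and 1800. The cholesterol genes were then 7 called higher and 6 lower, as they were with quantile normalization and median scaling. The median change was -0.11 for the 29 genes and -0.17 for the 16 enzymes, and -0.03 for all tested genes. For the enzymes it was -0.0887 with equal FPKM sums and -0.0923 with quantile normalization. Libraries of the 2 times did not overlap for 7 genes that were higher at 72 h (14.9% of all genes) and 10 that were lower (23.9%). A called change of at least 1 was seen for 0 of the 29 genes in either direction, against 0.253% of all genes upward and 0.506% downward. By role, 4 of 6 mevalonate and isoprenoid enzymes were called lower and 0 higher, and of the 8 enzymes after lanosterol 3 were called lower and 2 higher. None of the 4 genes of SREBP2 control was called by limma, and INSIG2 was the one with an unadjusted p below 0.05 (0.0143). Both groups were treated, so this comparison asks what changed with another day of insulin and culture together.

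The 8 genes called under every alternative setting were ABCA1, MYLIP, NPC2, MVK, MVD, HSD17B7, ACAT2 and SOAT1. The ABCA1 mean at 72 h was 2.01 times that of 48 h (0.92 ± 0.13, limma adjusted p = 0.000711), and the lowest 72 h library was above the highest of 48 h. MYLIP differed by 0.61 ± 0.07 (limma adjusted p = 0.000174) and NPC2 by 0.43 ± 0.07 (limma adjusted p = 0.00129). The widest fall was that of MVK, at -0.61 ± 0.09 (limma adjusted p = 0.000939), so that its mean at 72 h was 0.637 times that at 48 h. MVD fell by 0.42, HSD17B7 by 0.40, ACAT2 by 0.33 and SOAT1 by 0.30 (limma adjusted p = 0.0112, 0.00862, 0.00601 and 0.00943). With the trend on gene span removed, the fall of ACAT2 was 0.22.

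The other 6 calls between 48 h and 72 h depended on the settings or on single libraries. EBP, at -0.34 ± 0.08, was lost only with the span trend removed (-0.21, limma adjusted p = 0.0570). SC5D, at 0.38 ± 0.11, was called under 15 of 20 settings and lost without 48 h replicate 1 or 2 or 72 h replicate 1 or 3 (limma adjusted p = 0.0933, 0.0884, 0.0942 and 0.0577). NPC1, at 0.26 ± 0.08, was called under 12 of 20 and lost without 0 h replicate 1 or 3 (0.0512 and 0.0506), 48 h replicate 1 or 2 (0.0625 and 0.11) or 72 h replicate 1 or 3 (0.116 and 0.0918). CYP51A1, at 0.16 ± 0.05, was called under 10 of 18 and lost when any one library other than 48 h replicate 3 or 72 h replicate 2 was left out (limma adjusted p = 0.0726 to 0.143). NSDHL, at -0.31 ± 0.09, was called under 9 of 20 and lost without 48 h replicate 1 or 2 (0.0934 and 0.0662) or when any one 72 h library was left out (0.0514 to 0.0902). IDI1, at -0.21 ± 0.07, was called under 5 of 18 and lost when any one library other than 48 h replicate 3 was left out (limma adjusted p = 0.0592 to 0.127). Leaving out single libraries also brought calls: FDPS, at -0.21 ± 0.07, was called without 48 h replicate 3 (-0.28, limma adjusted p = 0.0123), INSIG2 without 48 h replicate 3 or 72 h replicate 2 (0.0338 and 0.0295) and TM7SF2 without 72 h replicate 2 (0.50, 0.0468).

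**Figure D5:**
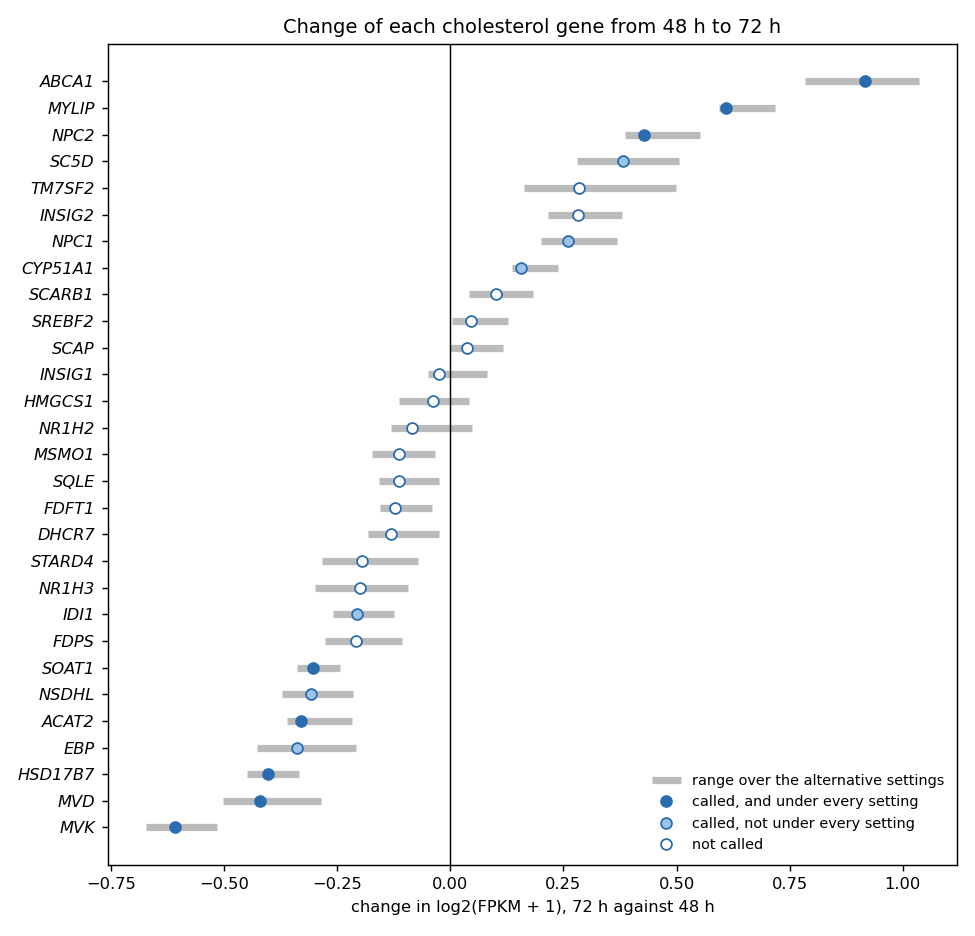
Change of each of the 29 tested cholesterol genes from 48 h to 72 h, in log2(FPKM + 1), ordered by size, with grey bars for the lowest and highest value over the alternative settings. Dark points were called under every setting, pale points as reported but not under every setting, and open points were not called; ABCA1 is at 0.92 and MVK at -0.61.

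The 48 h libraries were not equally far from 72 h. The 72 h mean was nearest to 48 h replicate 3 for 19 of the 29 genes, to replicate 2 for 6 and to replicate 1 for 4, and over all tested genes replicate 3 was nearest for 49.7%. Without that library, 7 of the 29 genes were called higher and 9 lower from 48 h to 72 h, and against 0 h the counts were 23 higher and 1 lower at 48 h. Over all genes the calls from 48 h to 72 h went in the same direction, from 1014 higher and 1800 lower to 1497 and 2196. Without 48 h replicate 1 or 2 or 72 h replicate 1 or 3, 3 cholesterol genes were called higher and 6 lower, and over all genes 589 to 681 were called higher and 1138 to 1274 lower.

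Other genes around the pathway were called about as often as any tested gene. A list of 68 further genes, in 6 groups that border on the pathway, gave 62 with an identifier and 55 that were tested. Of these 13 were called higher and 11 lower at 48 h, with a median change of 0.03, and 16 and 13 at 72 h, with a median of -0.03. Over all tested genes the shares called were 27.6% higher and 22.4% lower at 48 h, and 23.0% and 22.5% at 72 h, so the counts of this list lie near the background. The groups below are smaller still, and their counts are a description to be read against the same shares. From each group the called genes with the largest change in each direction are named here.

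In the isoprenoid branches, which use farnesyl diphosphate for products other than sterols, 1 of 12 tested genes was called higher and 2 lower at 48 h (27.6% and 22.4% of all genes), and 1 and 4 at 72 h (23.0% and 22.5%). ICMT, which methylates prenylated proteins, was the gene that rose, at 234, 215 and 217 FPKM at 0 h, 368, 328 and 295 at 48 h and 283, 309 and 282 at 72 h. Its treated libraries were all above the controls, with changes of 0.57 ± 0.08 and 0.39 ± 0.08. DHDDS and NUS1 form the enzyme that makes dolichol precursors, and both were called lower: DHDDS changed by -0.27 ± 0.10 and -0.62 ± 0.10, and NUS1 by -0.35 ± 0.10 and -0.36 ± 0.10. PDSS1, which makes the side chain of coenzyme Q, went from 5.03 ± 0.409 (SD, n = 3) to 4.10 ± 0.367 and 2.48 ± 0.410 FPKM and was called lower at 72 h, by 0.80. At 48 h the DHDDS call was lost whichever 0 h library was left out, and without 48 h replicate 1 or 3 or 72 h replicate 1 (limma adjusted p = 0.0547 to 0.140). It was also lost without the filter and with median scaling (0.0892 and 0.0617). The 48 h call of NUS1 was lost without 0 h replicate 3 (0.0547). PDSS1 was called at 48 h without 72 h replicate 1 (limma adjusted p = 0.0429). It was also called there with equal FPKM sums, library weights and the 2 groups alone (0.0236, 0.0167 and 0.0487).

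Among 8 tested genes of SREBP processing and of sterol control in the endoplasmic reticulum, 2 were called lower at 48 h and 3 at 72 h. The others were not called. Over all genes 22.4% were called lower at 48 h and 22.5% at 72 h. LBR, described above, had the largest change. ERLIN2, a membrane scaffold for the degradation of sterol regulated proteins, went from 14.6 ± 0.514 to 11.4 ± 0.896 and 12.4 ± 0.711 FPKM (SD, n = 3), changes of -0.33 ± 0.07 and -0.21 ± 0.07. At 72 h ERLIN2 was not called without 0 h replicate 1 or 3 or 72 h replicate 1 or 2 (limma adjusted p = 0.0664 to 0.12). Nor was it called with quantile normalization or median scaling (0.0549 and 0.0973).

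Of 21 tested genes of sterol transfer and the lysosome, 5 were called higher and 5 lower at 48 h, and 6 and 4 at 72 h, close to the shares over all genes. TMEM97, a partner of NPC1 that is known to respond to sterols, was at 16.5, 15.2 and 16.2 FPKM at 0 h, 24.2, 22.6 and 23.0 at 48 h and 22.1, 21.3 and 22.9 at 72 h. Both later groups were above the controls, with changes of 0.52 ± 0.06 and 0.45 ± 0.06. SCARB2, a membrane protein of the lysosome, was at 27.8, 28.3 and 27.1, then 31.2, 35.4 and 39.5, then 48.3, 54.6 and 51.7 FPKM, in order of time and without overlap (0.33 ± 0.08 and 0.87 ± 0.08). Its 48 h call was lost with equal FPKM sums (0.20, limma adjusted p = 0.0998). The oxysterol binding protein genes moved both ways: OSBPL5 changed by 0.41 ± 0.06 and 0.38 ± 0.06, OSBPL10 by -0.41 ± 0.09 and -0.48 ± 0.09 and OSBPL3 by -0.39 ± 0.08 and -0.50 ± 0.08. OSBPL1A was called higher at 72 h (0.13 ± 0.08 at 48 h and 0.45 ± 0.08 at 72 h). With the span trend removed, OSBPL10 was not called at 48 h (-0.24, limma adjusted p = 0.0513), OSBPL1A was called there (0.29, 0.00497) and OSBPL3 was at -0.23.

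Of 5 tested lipoprotein receptors and adaptors other than SCARB1, 4 were called higher and 1 lower at both times. Over all genes the shares were 27.6% and 22.4% at 48 h, and 23.0% and 22.5% at 72 h. VLDLR, a receptor for triglyceride rich lipoproteins, was the gene that fell, at 107, 106 and 110.5 FPKM at 0 h, 69.9, 77.4 and 84.5 at 48 h and 70.8, 74.0 and 75.6 at 72 h. All treated libraries were below all controls, with changes of -0.48 ± 0.07 and -0.55 ± 0.07. LRPAP1, a chaperone of this receptor family, and LRP8, another member of it, rose: LRPAP1 by 0.48 ± 0.10 and 0.52 ± 0.10, and LRP8 by 0.38 ± 0.09 and 0.52 ± 0.09. DAB2, an endocytic adaptor, went from 41.0 ± 1.21 to 46.9 ± 2.70 and 63.7 ± 5.15 FPKM (SD, n = 3), changes of 0.19 ± 0.07 and 0.62 ± 0.07. The 48 h call of DAB2 was lost whichever 0 h library was left out, and without 48 h replicate 1 or 3 (limma adjusted p = 0.0722 to 0.134). It was also lost with equal FPKM sums (0.06, 0.586), with quantile normalization (0.08, 0.453) and without the filter (0.0648).

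Of 2 tested oxysterol enzymes, HSD3B7, which acts on oxysterols on the way to bile acids, was called higher at both times and CYP7B1 at neither. HSD3B7 was at 22.0, 20.03 and 20.5 FPKM at 0 h, 42.1, 42.2 and 39.5 at 48 h and 40.2, 45.6 and 42.2 at 72 h. The later times overlapped and every treated library was above the controls, with changes of 0.95 ± 0.07 and 1.0 ± 0.07. Among 7 tested LXR partners, LXR targets and genes of sterol esters, 2 were called higher and 1 lower at 48 h (27.6% and 22.4% of all genes). At 72 h 4 were called higher and 1 lower (23.0% and 22.5%). LPCAT3, a phospholipid remodelling enzyme and LXR target, was at 14.7, 13.1 and 12.5 FPKM at 0 h, 27.6, 28.9 and 23.1 at 48 h and 29.5, 30.9 and 29.6 at 72 h, well above the controls at both times (0.93 ± 0.09 and 1.11 ± 0.09). RXRA, the partner with which LXR binds DNA, was at 6.73, 5.90 and 6.19, then 9.74, 10.1 and 8.87, then 10.4, 11.3 and 9.42 FPKM. All its treated libraries were above the controls and the later times overlapped (0.54 ± 0.08 and 0.65 ± 0.08).

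NCEH1, which hydrolyses cholesteryl esters and so opposes SOAT1, was at 16.7, 17.2 and 15.0 FPKM at 0 h, 12.3, 11.2 and 14.6 at 48 h and 29.5, 24.1 and 29.7 at 72 h. It was lowest at 48 h and highest at 72 h with no overlap of the 3 groups, at -0.35 ± 0.11 and 0.73 ± 0.11 against 0 h and 1.07 ± 0.11 from 48 h to 72 h (limma adjusted p = 0.0205, 0.000267 and 8.03e-05). The 48 h call was lost without 0 h replicate 1 or 2 or 48 h replicate 1 or 2 (limma adjusted p = 0.0599, 0.0707, 0.0549 and 0.0843). It was also lost without the filter and with the span trend removed (0.0530 and 0.0604). LIPE, the hormone sensitive lipase, which also cleaves cholesteryl esters, went from 2.89 ± 0.298 to 3.19 ± 0.233 and 1.99 ± 0.155 FPKM (SD, n = 3) and fell by 0.38 at 72 h.

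Fatty acid synthesis genes, many of which are known targets of the SREBP family, were set beside the cholesterol enzymes. All 12 tested were called higher at 48 h and 11 at 72 h, with medians of 1.10 and 1.06, against 16 of 16 cholesterol enzymes at both times with medians of 1.5 and 1.33. Over all tested genes, 27.6% were called higher at 48 h and 23.0% at 72 h. From 48 h to 72 h, 3 fatty acid genes were called higher and 1 lower, where 2 of the cholesterol enzymes were called higher and 7 lower. The shares over all genes were 9.17% higher and 16.3% lower. Of the enzyme calls, the rises of CYP51A1 and SC5D and the falls of EBP, IDI1 and NSDHL were not made under every alternative setting. SREBF1, the gene of the related factor SREBP1, was at 8.52, 8.44 and 7.85 FPKM at 0 h, 24.5, 27.2 and 25.3 at 48 h and 33.5, 35.4 and 29.5 at 72 h. It was thus below SREBF2 in FPKM in every library. Its change against 0 h was the larger, 1.86 at 72 h against 1.08 for SREBF2. Over the alternative settings at 48 h, SREBF1 changed by 1.43 to 1.62 and SREBF2 by 0.91 to 1.14. The changes of these genes were not tested against each other. No test between the lists was made.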

How the data were processed

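RNA of porcine embryonic fibroblasts was sequenced in 9 libraries, 3 per group, after removal of ribosomal RNA per the labels' protocols. The deposited values are FPKM, computed by the authors. Tools credited in the submitters' processing notes, with no role or order, are DESeq2 (no version), RSEM 1.2.28, featureCounts 2.0.2 and HISAT2 2.1.0, and the build is Sscrofa11.1. Which of them made the FPKM values, from which annotation and with what use of strand was not given in the sources used here.

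Genes entered the test if 3 or more libraries reached an FPKM of 1. Their log2(FPKM + 1) was fitted by group for all 9 libraries together, using limma 3.58.1 under R 4.3.3 and a trend in the prior variance. Tests were two-sided, adjusted by Benjamini-Hochberg over 11063 genes and called below 0.05. Depth is unknown, so the spread between replicates sets the precision (median standard error 0.0883). In data simulated for 48 h against 0 h over 11063 genes, 74% of 100 genes changed by 0.5 and 97% of 100 changed by 1 were recovered, and 8 unchanged genes were called. Only 200 genes were changed there, with noise drawn independently for each value, whereas 49.9% of genes were called in the data. The simulated rates may therefore not hold for the reported test.

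The members and lists were chosen with earlier results of these data known, and a few genes are not reported here. The naming rule took all 32 members, and from each other list up to 2 called genes with the largest change in each direction at each time. Alternatives were another pseudocount, other filters and scalings, a gene span trend, library weights, a replicate block, 2 groups alone and leaving out each library.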

Additional observations from a re-analysis of the deposited data

Results flagged for a closer look

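For 14 of the 29 tested genes the change against 0 h at 72 h differed from that at 48 h, where 25.4% of all tested genes were called. The test was limma's for 72 h against 48 h with adjustment over all 11063 genes. This difference is the value given here on the log2 scale. It was higher at 72 h for ABCA1 (0.92), MYLIP (0.61), NPC2 (0.43), SC5D (0.38), NPC1 (0.26) and CYP51A1 (0.16). It was lower at 72 h for MVK (-0.61), MVD (-0.42), HSD17B7 (-0.40), EBP (-0.34), ACAT2 (-0.33), NSDHL (-0.31), SOAT1 (-0.30) and IDI1 (-0.21). NPC2 was called lower than 0 h at 48 h and higher at 72 h, and ABCA1 and MYLIP were called higher than 0 h at 72 h and not called at 48 h. The 48 h call of NPC2 was made under 12 of 20 alternative settings, and its 48 h libraries overlapped the controls. At 48 h MYLIP was called higher under 3 of 20 settings, and ABCA1 was called lower under 2 of 20. For the synthesis enzymes among the 14 genes, both changes against 0 h were called higher. The differences of SC5D, NPC1, CYP51A1, EBP, NSDHL and IDI1 were not called under every alternative setting.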

How the results depend on the processing

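Of 120 called changes of named genes, none turned in direction under any of the 20 alternatives, 1 of which (genes with a known span, with no trend removed) was chosen after seeing the data. Called under every alternative were 23 of 24 members at 48 h (not NPC2), 26 of 27 at 72 h (not INSIG2) and 8 of 14 between 48 h and 72 h. The count of members called lower at 48 h (1 as reported) was 0 without the filter, with median scaling and with the 2 groups alone, 2 with equal FPKM sums, and 3 with library weights, whose estimate stopped before it converged. Leaving out 1 library gave 0 to 1 there, and 23 to 24 called higher. The median change of the synthesis enzymes at 48 h (1.5) was 1.37 with equal sums, 1.35 with quantile normalization, 1.36 with the span trend removed (14 enzymes) and 1.41 for genes with a span and the trend kept, and 1.42 to 1.52 with 1 library left out. At 72 h (1.33) it was 1.39 with median scaling, 1.27 with the span trend removed and 1.31 to 1.36 with 1 library left out, with 25 to 27 members called higher and 1 lower. Between 48 h and 72 h, 5 members were called lower with the span trend removed (8 as reported). With 1 library left out, 3 to 8 were called higher and 6 to 9 lower, and the median of the enzymes was -0.22 to -0.12. With equal sums, quantile normalization and median scaling, 7 were called higher and 6 lower (6 and 8 as reported), and the median of the enzymes (-0.17) was -0.0887, -0.0923 and -0.14.

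Uncalled changes turned in sign as follows. At 48 h, INSIG2 was -0.11 with equal sums, and -0.0443 to 0.0659 with 1 library left out. SCAP was 0.0248 with median scaling, 0.11 with the span trend removed, 0.00145 with library weights and -0.0398 to 0.0123 with 1 library left out. At 72 h, SCAP was -0.0258 with equal sums and -0.00406 to 0.0539 with 1 library left out. From 48 h to 72 h, HMGCS1 was 0.0413 with equal sums, 0.0253 with quantile normalization, 0.0277 with the span trend removed and -0.11 to 0.0380 with 1 library left out. INSIG1 was 0.0554 with equal sums, 0.0615 with quantile normalization, 0.000692 with median scaling, 0.0821 with the span trend removed and -0.0485 to 0.00285 with 1 library left out. With the span trend removed, SCAP was -0.00154 and NR1H2 0.0479.

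Whether the replicate numbers pair the libraries was left unsettled. Of 9 pairs with the same number, 2 correlated above 0.1, over a range of -0.0709 to 0.193. Pairs with different numbers ranged from -0.182 to 0.174. Yet 6 of 9 libraries correlated best with their own number. With the replicate block, 2 members were called lower at 48 h (SOAT1 joined, limma adjusted p = 0.0468) and FDPS was called from 48 h to 72 h (0.0473). No other call of a member or named gene changed with the block.

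Over all genes, the split of calls (higher and lower) moved at 72 h from 2542 and 2487 to 3067 and 1982 with median scaling. From 48 h to 72 h it moved from 1014 and 1800 to 1419 and 1136 with equal sums, 1312 and 1387 with quantile normalization, 1275 and 1457 with median scaling, 997 and 1150 with the span trend removed and 2408 and 3348 with library weights. It was 589 and 1138 without 48 h replicate 2, 624 and 1253 without 72 h replicate 1, 651 and 1240 without 72 h replicate 3, and 634 and 1205 with the 2 groups alone. The causes of these shifts were not tested. Depth is unknown. The added pseudocount understates the change of low genes, most of all ABCG1 and, among the genes tested, TM7SF2, whose means at 48 h and 72 h were 2.91 and 3.69 times that of 0 h. STARD4, NSDHL and INSIG2 are low as well.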
